A study of Homo sapiens with 9 samples.

Results

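The MYC and MAX network genes were read in RKO cells, a colorectal cancer cell line, on 1-colour Agilent SurePrint G3 Human GE v2 expression arrays. Members were chosen by gene name: every non-control probe that the array files assign to *MYC*, *MYCN*, *MAX*, *MXD1*, *MXD3*, *MXD4*, *MXI1*, *MNT* or *MLX*. This gave 19 probes of 9 genes, among 50599 probes of 32363 gene names. The siRNA arrays comprised 2 arrays each of control siRNA with mock (siCONT), siRNA against *UHRF1* with mock (siUHRF1), control siRNA with the histone deacetylase inhibitor trichostatin A (siCONT + TSA), and both together (siUHRF1 + TSA). The siRNAs were given for 72 h, and the ethanol mock or 300 nM TSA for a further 24 h. Depletion used a different siRNA for each replicate, siUHRF1-1 for replicate 1 and siUHRF1-2 for the other, with and without TSA. A single further array held RKO cells without siRNA, given 5-aza-dC (5-aza-2′-deoxycytidine), a DNA methyltransferase inhibitor, at 1 µM for 72 h. UHRF1 works with the methyltransferase DNMT1 in copying methylation marks when cells divide. No label says that the arrays of a group came from separate cultures, so p-values measure the spread between these samples, which may be technical. In the depleted groups that spread also holds the difference between the 2 siRNAs. The median absolute log2 difference between the 2 arrays was 0.26 in siUHRF1 and 0.19 in siUHRF1 + TSA. It was 0.07 in siCONT and 0.08 in siCONT + TSA. The main fit shares 1 spread over the 4 groups, so the depleted groups also enter the p-values for TSA alone.

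MYC proteins bind DNA only when paired with MAX, through a basic helix-loop-helix leucine zipper, and the pair recognises the E-box CACGTG and recruits histone acetyltransferases. The MXD proteins (MXD1, MXD3, MXD4 and MXI1) and MNT pair with the same MAX and recruit SIN3 with histone deacetylases, so they oppose MYC at shared sites. MLX joins some of these repressors to a parallel branch that senses glucose through MLXIP and MLXIPL. *MYC* is a well known target of Wnt signalling in colorectal cancer, and *MXD1* is known for its rise in differentiating epithelia.

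The E-box that the network binds was searched in promoter windows of 250 bases before to 50 bases after each gene start, taken from RefSeq (GRCh38.p14). The word CACGTG is its own reverse complement, so 1 search covers both strands. Of the members' windows that were read, *MXD4*, *MNT* and *MLX* held 1 E-box each, and those of *MYCN*, *MAX*, *MXD1*, *MXD3* and *MXI1* held none. That of *MYC* was not searched. Over all 35116 windows, 7.26% held at least 1. The 3 sites are shown with 12 flanking bases on each side, because they are the E-boxes found in the members' windows that were searched. Capitals mark the E-box, and each run is read 5′ to 3′ on the strand of its gene.
MXD4: gggccgggccacCACGTGctgttgctaagc
MNT: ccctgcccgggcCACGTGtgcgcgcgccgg
MLX: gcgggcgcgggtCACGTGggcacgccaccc
The *MXD4* run lies at chr4:2262330-2262359 on the minus strand and its E-box starts 238 bases before the gene start. The *MNT* run lies at chr17:2401236-2401265 on the minus strand, 193 bases before the start, and the *MLX* run at chr17:42567038-42567067 on the plus strand, 50 bases before it. The same 3 windows were rich in CpG, the dinucleotide on which UHRF1 and 5-aza-dC act. They held 37, 40 and 37 CpG, against a median of 14 over all windows, while the windows without an E-box held between 12 (*MXD3*) and 35 (*MXI1*), with 33 in another *MXI1* window and 19 in that of *MXD1*. Whether a factor occupies these letters in RKO cells was not measured.

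Signals are given as log2 of the background-subtracted spot intensity minus the array's own 75th percentile. That percentile ranged from 245.3 to 337.9 with siRNA and was 821.6 with 5-aza-dC. On each siRNA array 43.68% to 46.58% of probes exceeded background, the 5-aza-dC array had 51.62%, and no spot was saturated. Of the 19 probes, 17 (of 8 genes) were above background throughout at least 1 siRNA group and were tested. The only *MYCN* probe and 1 of the 2 *MXD3* probes (A_24_P417706) were not well above background on any array. Precision is limited by having only 2 arrays per siRNA group. All siRNA arrays shared 1 slide and 1 scan. On it the mock arrays filled 1 row and the TSA arrays the other, and the siRNAs went with the columns, so slide position and treatment cannot be told apart. Neither the slide nor the scan was shared by the 5-aza-dC array.

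The label of the depletion held in the data. *UHRF1* (probe A_23_P208880) read 2.69 and 2.69 in siCONT, 0.36 and 0.07 in siUHRF1, 2.87 and 2.86 in siCONT + TSA, and -0.34 and -0.62 in siUHRF1 + TSA. All 4 depleted arrays were below all 4 control siRNA arrays. *UHRF1* fell by 2.47 on the log2 scale without TSA and by 3.35 with it (limma adjusted p = 0.00238 and 0.000132). The reference genes *ACTB* and *GAPDH* were not called in any comparison. As markers of the line, the keratins *KRT8* and *KRT18* and the intestinal factors *CDX1* and *CDX2* were above background on all 8 siRNA arrays, whereas *CDH1*, *VIL1* and *LGR5* were above background on 0, and *EPCAM* on 1. Some markers of other cell types were also above background. *COL1A1*, *CDH5* and *DES* were so on all 8, *ACTA2* on 7, *VWF* on 6 and *PTPRC* on 5, while *CD3E*, *COL3A1*, *PECAM1* and *MYH11* were so on 0. The mean signals of *ACTA2* and *VWF* were -3.56 and -4.61 in siCONT and -0.87 and -0.92 in siUHRF1 + TSA. In the same groups *COL1A1* read -2.71 and -1.04, *CDH5* -3.38 and -3.88, *DES* -0.02 and 0.10, *PECAM1* -5.45 and -5.96, and *MYH11* -5.23 and -4.65. Above background on 2 or 3 arrays were *COL1A2* (-6.34 and -2.30), *PDGFRB* (-6.04 and -2.90), *CD14* (-4.52 and -4.17) and the keratin *KRT19* (-6.20 and -2.23). Their part in the results below was not tested.

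**Figure D1:**
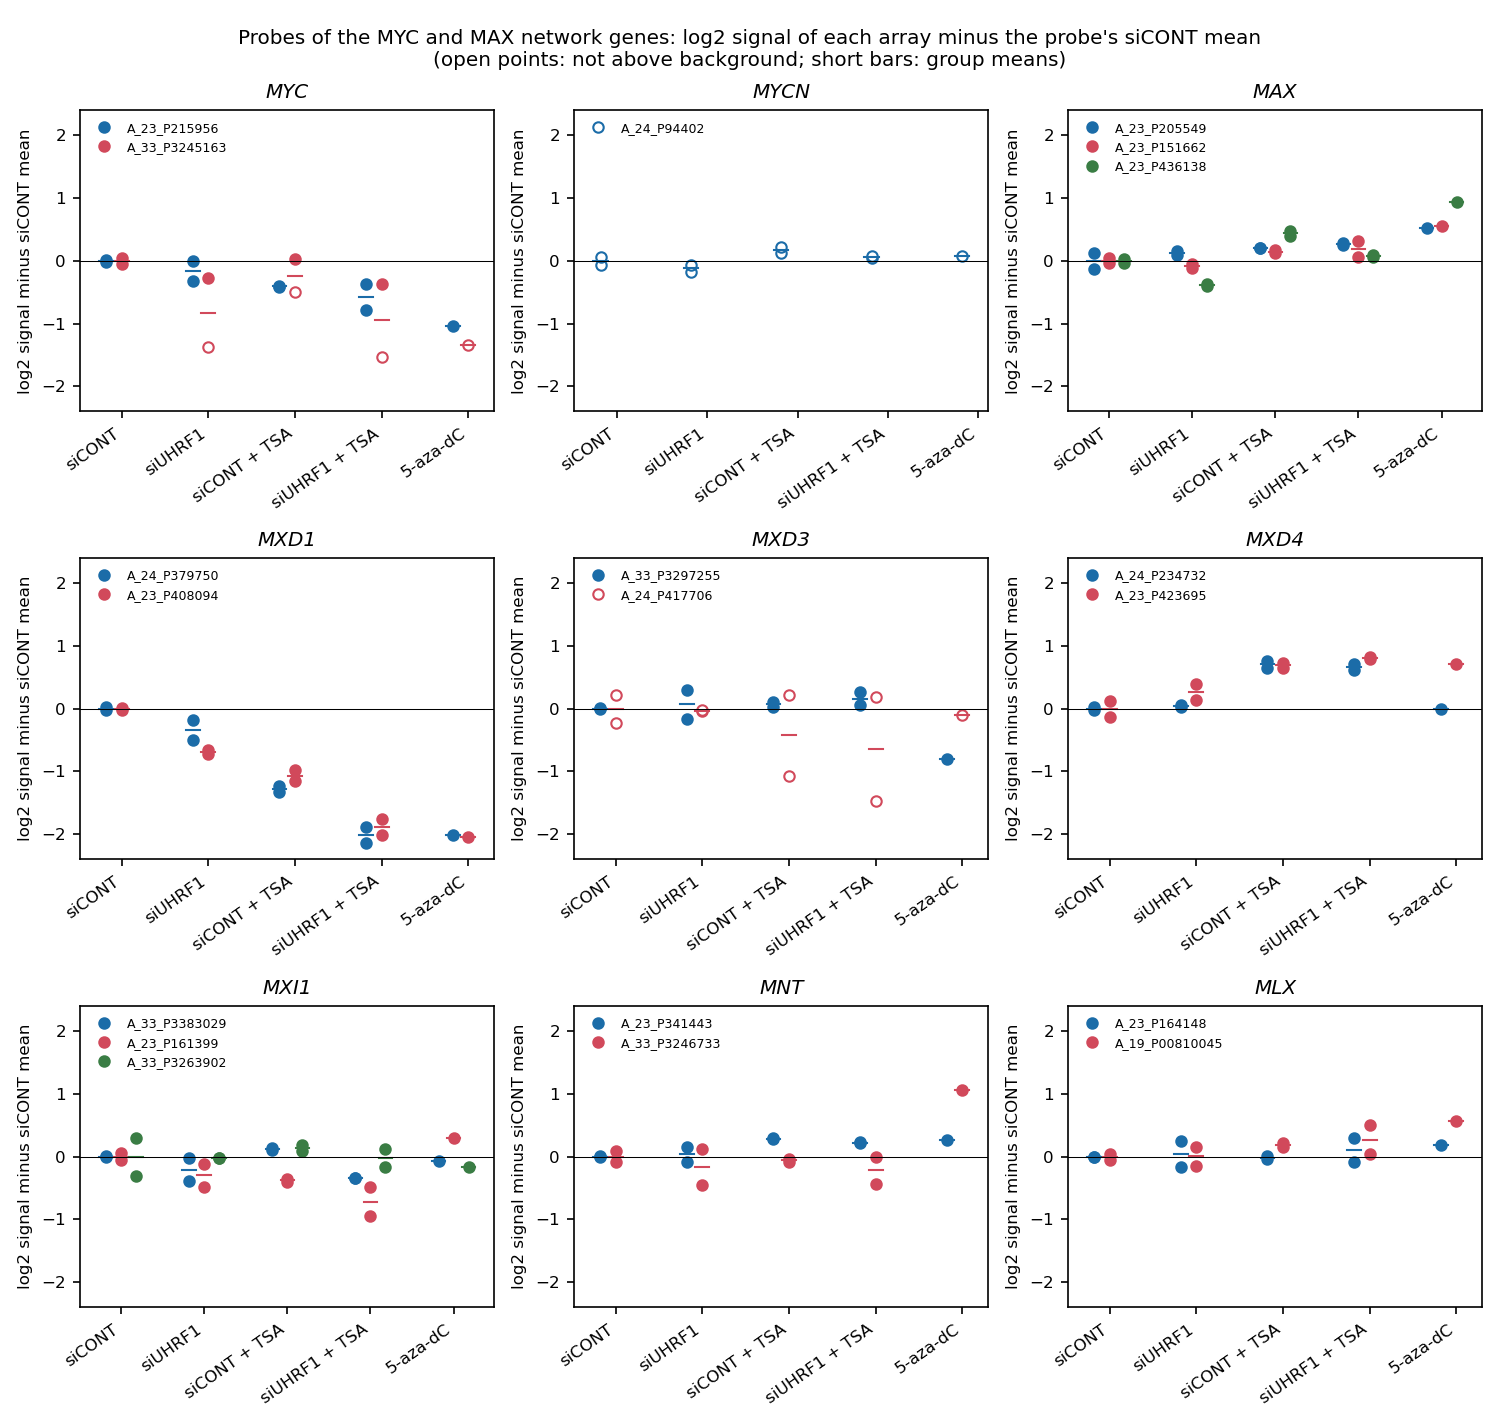
Each panel is a gene, each point 1 array, and the y axis gives the log2 signal minus that probe's mean in siCONT, with colours for different probes, short bars for group means and open points for arrays not above background. Both *MXD1* probes stand lowest of the siRNA groups in siUHRF1 + TSA (log2 fold changes -2.01 and -1.88), and both *MXD4* probes stand above their siCONT mean in the groups with TSA. The points of the main *MYC* probe (A_23_P215956) decline more shallowly than those of *MXD1*, and those of its dim second probe (A_33_P3245163) scatter more widely.

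*MYC* encodes the growth-promoting transcription factor at the centre of the network, and its signal was lowest on the single 5-aza-dC array, whose slide and scan also differ. Its main probe (A_23_P215956, hg19 chr8:128753268-128753327, 10 spots on each array) read 6.15 and 6.18 in siCONT, 6.16 and 5.85 in siUHRF1, 5.75 and 5.77 in siCONT + TSA, 5.79 and 5.38 in siUHRF1 + TSA, and 5.13 with 5-aza-dC. All TSA arrays were below both siCONT arrays, the siUHRF1 arrays overlapped siCONT, and siUHRF1 + TSA overlapped siCONT + TSA. The group means in that order were 6.166, 6.002, 5.759, 5.583 and 5.133. In bulk RNA, fewer cells with a transcript and less of it per cell cannot be told apart.

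With the siRNA groups fitted together, no comparison among them called *MYC*. The log2 fold change was -0.16 ± 0.17 (SE; limma adjusted p = 0.873) for siUHRF1 against siCONT and -0.41 ± 0.17 (adjusted p = 0.17) for siCONT + TSA against siCONT. With only these groups in the fit the latter was called (adjusted p = 0.0108), as it was by the methods' t-test (0.0305 after adjustment), and normexp gave -0.64 (adjusted p = 0.12, limma). For siUHRF1 + TSA against siCONT it was -0.58 ± 0.17, with a 95% confidence interval from -0.99 to -0.18 and an adjusted p = 0.0511, which just misses the threshold of 0.05. This value passed it in 9 of 21 alternatives. It depended on which siRNA was kept, being -0.79 (adjusted p = 0.0336, limma) without siUHRF1 + TSA replicate 1 and -0.38 without siUHRF1 + TSA replicate 2, and its adjusted p ranged from 0.024 to 0.242 over the alternatives. TSA within siUHRF1 gave -0.42 ± 0.17 (limma adjusted p = 0.141). For each siRNA the signal was lower with TSA, at 5.79 against 6.16 with siUHRF1-1 and 5.38 against 5.85 with siUHRF1-2. The value went from -0.62 to -0.22 as siUHRF1 + TSA replicate 1 or the other was left out, so that the groups no longer held the same siRNAs. The value for siUHRF1 alone likewise went from -0.32 to -0.0099 without siUHRF1 replicate 1 or the other.

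A second *MYC* probe (A_33_P3245163, hg19 chr8:128748076-128748135), placed upstream of the first in the gene, was dim. It read -3.58 and -3.49 in siCONT and was above background on 5 of the 8 siRNA arrays, with 1 array of each other group below it. It passed the filter only through siCONT, its highest group, so a fall from siCONT was favoured by the filter and its fits are no test of one. Its log2 fold change was -0.94 ± 0.49 for siUHRF1 + TSA against siCONT, and no siRNA comparison called it. With 5-aza-dC it was not above background, at -4.88.

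*MAX*, the shared partner of the MYC and MXD proteins and MNT, has 3 probes, which the files annotate to differing sets of transcripts. The dimmest of them, annotated to a single RefSeq transcript (A_23_P436138, hg19 chr14:65550834-65550893), read -1.97 and -1.91 in siCONT, -2.31 and -2.34 in siUHRF1, -1.46 and -1.54 in siCONT + TSA, and -1.88 and -1.85 in siUHRF1 + TSA. No group overlapped siCONT. TSA raised this probe by 0.44 ± 0.09 over siCONT and by 0.46 ± 0.09 over siUHRF1 (limma adjusted p = 0.0337 and 0.0234), calls that held in 11 and 10 of 21 alternatives. Both were lost without any 1 siCONT or siCONT + TSA array, and the second also without either siUHRF1 + TSA array. Spike-in scaling gave 0.25 and 0.28 (adjusted p = 0.471 and 0.387, limma). On the same probe, siUHRF1 + TSA differed from siCONT by 0.07 ± 0.09 (adjusted p = 0.594). The other *MAX* probes (A_23_P205549 and A_23_P151662) were not called among the siRNA groups, with log2 fold changes of 0.27 ± 0.11 and 0.19 ± 0.11 for siUHRF1 + TSA against siCONT. For TSA alone they were at 0.20 ± 0.11 and 0.15 ± 0.11 (adjusted p = 0.289 and 0.443), and the difference between probes was not tested.

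*MXD1*, the MAX partner that represses MYC sites in differentiating cells, had the largest falls among the called members in the siRNA comparisons. The brighter probe (A_24_P379750, hg19 chr2:70169884-70169943) read 2.44 and 2.39 in siCONT, 2.23 and 1.92 in siUHRF1, 1.09 and 1.18 in siCONT + TSA, 0.53 and 0.27 in siUHRF1 + TSA, and 0.40 with 5-aza-dC. The other probe (A_23_P408094, annotated to hg19 chr2:70142526-70143302) read 0.31 and 0.34, then -0.40 and -0.33, then -0.83 and -0.65, then -1.44 and -1.68, and -1.72 with 5-aza-dC. On both probes the 4 siRNA groups did not overlap and stood in the same order, siCONT highest and siUHRF1 + TSA lowest.

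With TSA alone, *MXD1* fell by 1.28 and 1.06 on the log2 scale on the brighter and the dimmer probe (SE 0.15 and 0.12, limma adjusted p = 0.0109 for both). With siUHRF1 + TSA against siCONT it fell by 2.01 and 1.88, which is 4.04-fold and 3.69-fold lower (limma adjusted p = 0.000673 and 0.000445). Both calls held in 20 of 21 alternatives, the exception being the methods' t-test after Benjamini-Hochberg adjustment (adjusted p = 0.0745 and 0.074). The TSA-alone calls held in 17 of 21. They were lost when siCONT replicate 1, siCONT replicate 2, siCONT + TSA replicate 1 or siCONT + TSA replicate 2 was left out, with values between -1.32 and -1.24 on the brighter probe. Within siUHRF1, *MXD1* also fell with TSA, with log2 fold changes of -1.67 and -1.20 (limma adjusted p = 0.00254 and 0.00412).

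The log2 fold changes of *MXD1* for depletion were nearer to 0 than those for TSA. Under TSA, the log2 fold change of siUHRF1 + TSA against siCONT + TSA was -0.73 ± 0.15 on the brighter probe (limma adjusted p = 0.0544) and -0.82 ± 0.12 on the dimmer probe (adjusted p = 0.0202), so that only the dimmer probe was called, in 11 of 21 alternatives. It was not called without either siCONT array, without either siCONT + TSA array or without siUHRF1 + TSA replicate 2, which gave -0.70. Without TSA the values were -0.34 ± 0.15 and -0.69 ± 0.12 (adjusted p = 0.577 and 0.106). The difference between these effects of depletion with and without TSA was -0.39 ± 0.21 and -0.13 ± 0.17 (adjusted p = 1 for both), with intervals from -0.89 to 0.11 and from -0.55 to 0.28.

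*MXD4*, another MXD repressor, moved the other way. Its brighter probe (A_24_P234732, hg19 chr4:2249759-2249818) read -1.17 and -1.12 in siCONT, -1.08 and -1.11 in siUHRF1, -0.49 and -0.38 in siCONT + TSA, and -0.53 and -0.43 in siUHRF1 + TSA. Every array with TSA was above every array without it. The dimmer probe (A_23_P423695, hg19 chr4:2251280-2251339) read -1.94 and -2.20, then -1.93 and -1.68, then -1.34 and -1.42, then -1.24 and -1.28, and its groups split the same way.

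TSA alone raised *MXD4* by 0.71 ± 0.09 and 0.69 ± 0.13 (limma adjusted p = 0.0133 and 0.0297), and the combination raised it over siCONT by 0.67 ± 0.09 and 0.81 ± 0.13 (adjusted p = 0.0058 and 0.00945). These are rises of 1.59-fold and 1.75-fold in the combination. In 16 and 18 of 21 alternatives the combination stayed called, and in 15 and 13 TSA alone. Under normexp the combination gave 0.42 on the dimmer probe (adjusted p = 0.198, limma). Its call was also lost on the dimmer probe without siCONT replicate 2, and on the brighter without siCONT replicate 1 or siCONT replicate 2. The TSA-alone call was lost on both probes when any siCONT or siCONT + TSA array was left out, and under normexp background correction or spike-in scaling. Within siUHRF1, TSA raised the probes by 0.61 and 0.54 (adjusted p = 0.0124 and 0.0436), the second in 8 of 21 alternatives and, of the arrays left out in turn, only without siUHRF1 replicate 2. It was lost with the replicate number, which marks the siRNA in both groups, as a block (adjusted p = 0.0636, limma). Adding siUHRF1 to TSA gave -0.05 ± 0.09 and 0.12 ± 0.13 (adjusted p = 0.854 and 0.708), with intervals from -0.27 to 0.18 and from -0.20 to 0.44.

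*MXI1*, a further MXD repressor, gave different readings by probe. A_23_P161399 (hg19 chr10:112045945-112046001) read 0.96 and 1.07 in siCONT and 0.53 and 0.07 in siUHRF1 + TSA, and its log2 fold change was -0.72 ± 0.19 (limma adjusted p = 0.041). That call held in 10 of 21 alternatives and rested on siUHRF1 + TSA replicate 2 for its size, being -0.49 (adjusted p = 0.134) without it. It was also lost without either siCONT array or either siCONT + TSA array. A_33_P3383029, which lies nearby on the same transcripts, read 0.97 and 0.98 in siCONT and 0.63 and 0.64 in siUHRF1 + TSA (-0.35 ± 0.13, adjusted p = 0.106). The remaining probe, A_33_P3263902, which lies upstream of the others, was at -0.03 ± 0.21. No *MXI1* probe was called for TSA alone.

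The remaining members were not called among the siRNA groups. *MXD3*, the MXD protein of proliferating cells, read between 2.46 and 2.92 on its detected probe (A_33_P3297255) over the 8 arrays. *MNT*, the most widely expressed MAX-binding repressor, had values from 2.56 to 2.93 on its brighter probe (A_23_P341443), with a log2 fold change of 0.28 ± 0.11 for TSA alone (limma adjusted p = 0.15). Its dimmer probe (A_33_P3246733) stood at -0.06 ± 0.22 there. *MLX* read between 1.65 and 2.11 on A_23_P164148, and siUHRF1 + TSA differed from siCONT by 0.11 ± 0.18 and 0.27 ± 0.18 on its 2 probes.

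**Figure D2:**
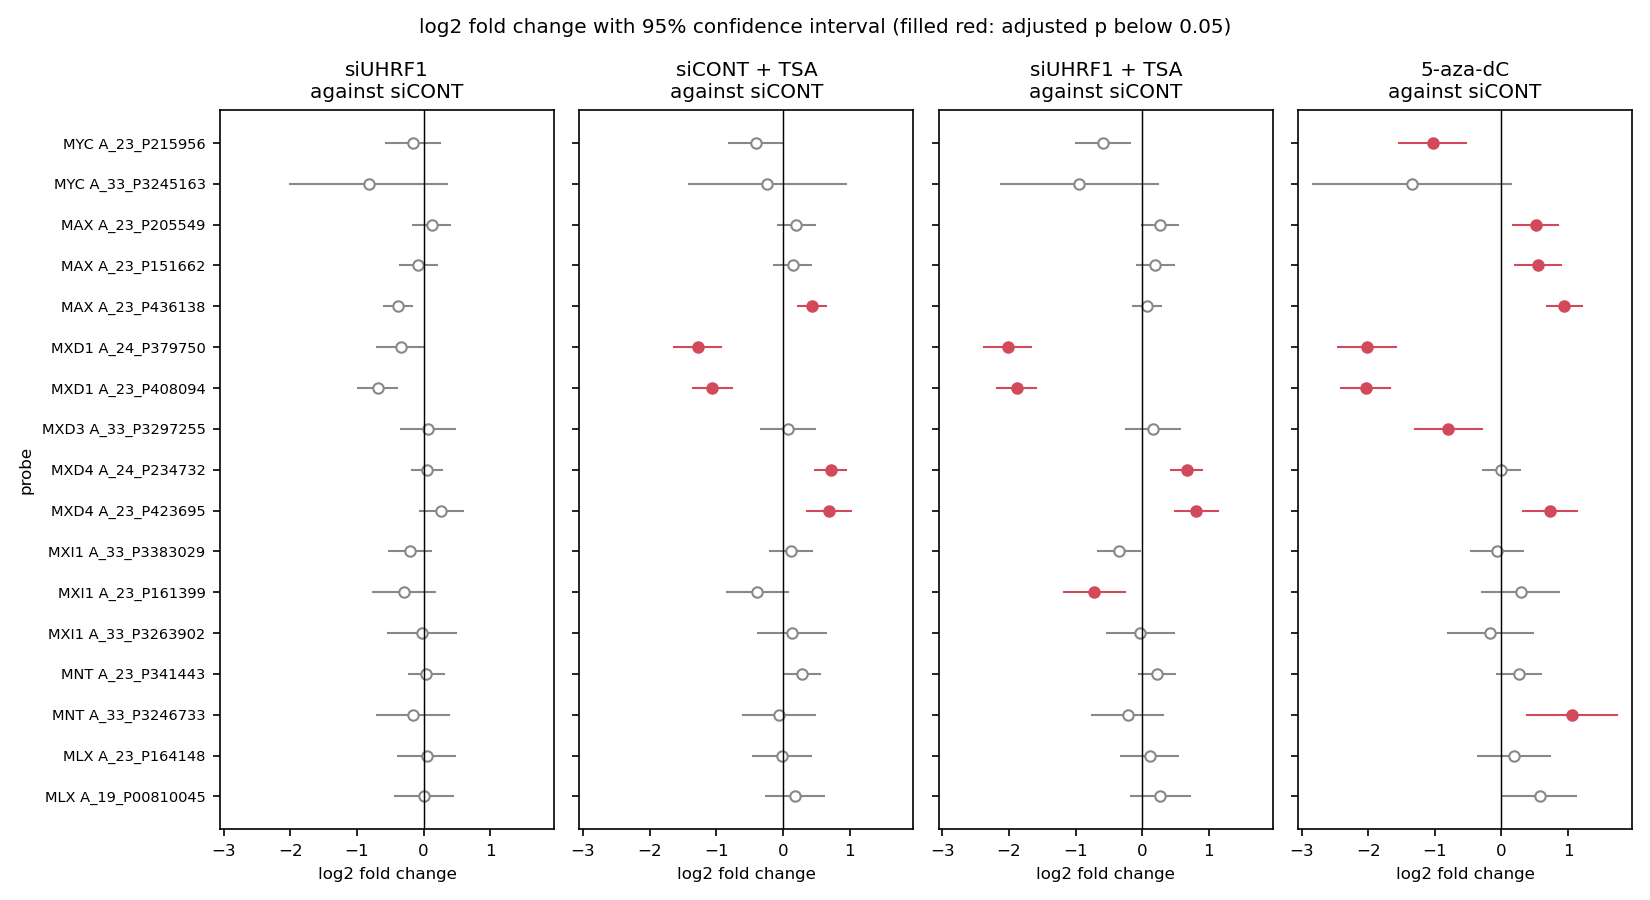
Rows are the 17 tested probes and panels the 4 comparisons with siCONT, and the x axis gives the log2 fold change with its 95% confidence interval (filled red where adjusted p is below 0.05). The 5-aza-dC panel rests on 1 array, so its intervals and colours have no replicate check. No probe was called for siUHRF1, *MXD1* lay furthest to the left in the panels with TSA, and in the 5-aza-dC panel the rises of *MAX*, *MNT* and 1 *MXD4* probe are relative to the array, since spike-in scaling put them below siCONT (-1.23 to -0.68) but above the median of all probes (-1.73).

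Counted over the network, siUHRF1 against siCONT called 0 of 17 probes, where limma called 0.556% of all 23731 probes. At an unadjusted p below 0.05, limma gave 2 of 17 (1 each of *MAX* and *MXD1*) beside 8.9% of all probes, and the methods' t-test 2 of 17 beside 7.79%. After adjustment that t-test called 0 members and 0% of all probes. TSA alone called 5 of 17 (3 higher and 2 lower) beside 10.4% of all probes, with 6.46% higher and 3.95% lower. siUHRF1 + TSA against siCONT also called 5 (2 higher and 3 lower), beside 23.2% of all probes, 15% higher and 8.25% lower. Adding siUHRF1 to TSA called 1, lower, beside 3.54% of all and 0.573% lower. TSA within siUHRF1 called 5 (3 higher and 2 lower) beside 15.5%, with 9.95% higher and 5.52% lower. After adjustment, the methods' t-test called 5 of 17 for TSA alone, beside 18.3% of all probes, and 1 for the combination, beside 1.04%. It called 0 of 17 probes for adding siUHRF1 to TSA and for TSA within siUHRF1, beside 0% and 0.00421% of all probes. Unadjusted, 6 of the 17 probes passed in each, beside 15.3% and 14.1% of all probes. The difference between the effects of depletion with and without TSA called 0 members with limma, where 0 also passed an unadjusted p below 0.05, beside 0.379% of all probes called and 4.91% unadjusted. The median log2 fold change over the 17 probes was 0.07 in the combination, and that over all probes 0.05. The members called in the comparisons with TSA were *MXD1*, *MXD4*, *MAX* and *MXI1*. These comparisons share control arrays.

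5-aza-dC is set apart by its slide, its scan, the absence of siRNA and its length of treatment, and these cannot be told apart from the drug. Its 1 array was given the spread of the siRNA groups, so its values have no replicate check and their p-values leave out any spread between slides. limma called 9 of the 17 probes (5 higher and 4 lower), beside 48.9% of 27174 probes, of which 24.1% were higher and 24.8% lower. *MXD1* fell by 2.02 and 2.04 (SE 0.18 and 0.15, adjusted p = 0.000463 and 0.000213), in 17 of 17 alternatives, and spike-in scaling gave -3.76 and -3.78. *MYC* fell by 1.03 ± 0.21 (adjusted p = 0.00906), 2.05-fold, also in 17 of 17, with values from -2.77 to -0.87. *MXD3* fell by 0.80 ± 0.21 (adjusted p = 0.023), to 1.82 on the drug array from 2.61 and 2.63, and was no longer called without siCONT replicate 1 or siCONT replicate 2. Spike-in scaling gave -2.54 for it.

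Rises with 5-aza-dC are given relative to the array. Against its 75th percentile, *MAX* stood 0.51, 0.55 and 0.94 higher on its 3 probes, *MNT* 1.06 on A_33_P3246733 and *MXD4* 0.72 on A_23_P423695. Scaled on the spike-in probes, all 5 were lower than in siCONT. Spike-in probes read 4.07 log2 units over the 75th percentile on the 5-aza-dC array and from 2.08 to 2.55 on those with siRNA. That scaling moved the median of all probes to -1.73 on the log2 scale, and the 5 probes, at -1.23 to -0.68, lay above it. The brighter probe of *MXD4* was at -0.0019 ± 0.12 and that of *MNT* at 0.26 ± 0.13, so the probes of these 2 genes also differed.

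Among other proteins of the family, *MLXIPL* encodes ChREBP, a glucose-sensing partner of MLX. It read -0.90 and -0.89 in siCONT, -0.45 and -0.43 in siUHRF1, -1.86 and -1.99 in siCONT + TSA, and -1.21 and -1.19 in siUHRF1 + TSA. No 2 groups overlapped, TSA arrays were lowest, and without TSA the value for depletion was 0.46 ± 0.09 and was not called (limma adjusted p = 0.15). *MLXIPL* fell by 1.03 ± 0.09 with TSA alone (limma adjusted p = 0.00711) and rose by 0.72 ± 0.09 when siUHRF1 was added to TSA (adjusted p = 0.0117). *MGA*, a large MAX-binding protein, rose by 0.40 ± 0.10 in the combination (adjusted p = 0.0318), whereas *MYCL*, another MYC gene, was at -0.34 ± 0.10 (adjusted p = 0.063) and *MLXIP* at 0.14 ± 0.12 (adjusted p = 0.457). Of 2 genes driven by MLX with MLXIP or MLXIPL, *ARRDC4* rose by 0.60 ± 0.12 in the combination (adjusted p = 0.0161) and *TXNIP* was at 0.22 ± 0.10 (adjusted p = 0.149).

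Genes around the network were described by list, each gene by its brightest probe, with no test of a list. In the combination against siCONT, 16.6% of 16275 gene names were higher and 8.41% lower, and the median log2 fold change was 0.07. Of 30 ribosome biogenesis genes, a classical MYC-activated group, 14 were higher and 0 lower (17 and 1 at an unadjusted p below 0.05, limma), with a median of 0.33. *RRS1*, a ribosome assembly factor, rose from 2.82 and 2.90 in siCONT to 4.41 and 4.28 (1.49 ± 0.09, limma adjusted p = 0.000423). *GRWD1*, a histone chaperone that binds preribosomes, rose from 2.25 and 2.36 to 3.67 and 3.72 (1.39 ± 0.10, adjusted p = 0.000686). Both stood higher in each group with TSA than in each without it, and *PPAN* rose by 0.67 ± 0.12 (adjusted p = 0.0132). The nucleolar proteins *NCL*, *NPM1* and *FBL* were between 0.04 and 0.07. Scaled on spike-in probes, 2 of the 30 were higher and 1 was lower, with a median of 0.16 beside -0.10 over all gene names, under normexp background correction 3 were higher, and under quantile normalization 11 were higher and 2 lower. Over all gene names, 8.12% were higher and 7.36% lower under spike-in scaling, 5.73% and 2.63% under normexp, 14.6% and 11.8% under quantile normalization, 6.07% and 2.43% with no filter, and 25.2% and 14.9% unadjusted.

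The growth metabolism list of 25 genes spans nutrient uptake, glycolysis, polyamine, nucleotide and one-carbon metabolism, translation and chaperones. Of these genes, 5 were higher and 7 lower in the combination, with a median of -0.09. The higher count depended on the processing, with 1 higher and 7 lower under spike-in scaling, 1 and 6 with no filter, 2 and 7 under quantile normalization and 2 and 5 under normexp background correction. *TFRC*, the transferrin receptor, rose by 1.26 ± 0.26, the folate carrier *SLC19A1* by 1.15 ± 0.12 and the cap-binding protein *EIF4E* by 0.49 ± 0.12 (limma adjusted p = 0.0195, 0.00235 and 0.0357). The one-carbon enzymes *MTHFD2* and *SHMT1* fell by 1.29 ± 0.14 and 0.84 ± 0.09, and the amino acid transporter *SLC7A5* fell by 0.99 ± 0.10 (adjusted p = 0.00295, 0.00245 and 0.00222). *ODC1*, *CAD* and *LDHA*, other well known MYC targets, were at 0.28, 0.05 and -0.09 and were not called. Of the growth metabolism genes with a promoter window, 14 of 22 held CACGTG (63.6%), as did 11 of 23 ribosome biogenesis genes (47.8%), 3 of 9 cell cycle genes (33.3%), 3 of 11 turnover genes (27.3%), 2 of 12 cofactors (16.7%) and 0 of 5 repressed targets, beside 8.77% of all 27305 genes.

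Of 13 cell cycle genes, 2 were higher and 4 lower in the combination (2 and 2 under normexp or with no filter), with a median of -0.48. *ID2*, an inhibitor of differentiation factors, rose by 2.16 ± 0.16 and *BIRC5*, which encodes survivin, by 0.99 ± 0.14 (limma adjusted p = 0.000722 and 0.0062). The replicative helicase subunits *MCM4* and *MCM5* fell by 0.90 ± 0.11 and 0.87 ± 0.13, and the phosphatase *CDC25A* by 0.60 ± 0.14 (adjusted p = 0.00341, 0.0076 and 0.0306). *CDK4* was at -0.35 ± 0.10 (adjusted p = 0.0579). Of 9 genes that MYC is known to repress, 3 were higher and 2 lower (1 and 2 under normexp). A stricter filter on dim probes tested 8 of them, with 2 higher and 2 lower, beside 16.1% and 9.77% of all gene names. The cell cycle inhibitors *CDKN2B* and *CDKN1C* were among the higher genes. *CDKN2B* was above background on both arrays only in siUHRF1 + TSA. It passed the filter only through that group, where it was highest, so its call carries no weight. Its fold was at least 1.90, because it was not above background in siCONT. *CDKN1C* rose by 1.22 ± 0.20 (limma adjusted p = 0.00957). *NDRG2*, a growth inhibitor, rose by 0.94 ± 0.09 (adjusted p = 0.00184), while the stress genes *GADD45A* and *ATF3* fell, with log2 fold changes of -1.45 ± 0.20 and -1.54 ± 0.24 (adjusted p = 0.00542 and 0.00782). *CDKN1A*, which encodes p21, was at 0.01 ± 0.12 (adjusted p = 0.964).

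Cofactors of MYC and MXD proteins and regulators of MYC protein were read in the same way. Of 16 tested cofactors, 6 were higher and 1 lower in the combination, with a median of 0.29. *KAT5*, the acetyltransferase of the TIP60 complex, rose by 0.68 ± 0.10, *ZBTB17*, which encodes the MYC partner MIZ1, by 0.61 ± 0.11, and *HCFC1*, a chromatin cofactor, by 0.71 ± 0.19 (limma adjusted p = 0.00682, 0.0122 and 0.0423). *HCFC1* was dim, at -3.10 and -3.06 in siCONT and -2.48 and -2.26 in siUHRF1 + TSA. With TSA alone it read -2.05 and -2.42. *EP400*, the remodeller of the same TIP60 complex, fell by 0.83 ± 0.21 (adjusted p = 0.0356). *SIN3A*, a scaffold through which MXD proteins recruit deacetylases, was at -0.11 ± 0.09 (adjusted p = 0.382), and *SIN3B* rose by 0.34 ± 0.09 (adjusted p = 0.0408). Scaled on spike-in probes, limma called 0 of the 16 cofactors, with 4 higher and 1 lower at an unadjusted p below 0.05, beside 13.6% and 18.2% of all gene names. Among 12 tested genes of MYC protein turnover, 3 were higher and 1 lower, against 1 in each direction under spike-in scaling and 1 higher and 0 lower (4 and 1 unadjusted, limma, beside 14.9% and 8.6% of all gene names) under normexp. The mitotic kinase *PLK1* rose by 1.10 ± 0.09, *GSK3B*, which marks MYC for degradation, by 0.57 ± 0.10, and the ubiquitin ligase *STUB1* by 0.51 ± 0.12 (adjusted p = 0.00128, 0.0117 and 0.0297), while the SUMO protease *SENP1* fell by 0.48 ± 0.12 (adjusted p = 0.0352). *FBXW7*, the ubiquitin ligase that recognises phosphorylated MYC, was at -0.12 ± 0.12.

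**Figure D3:**
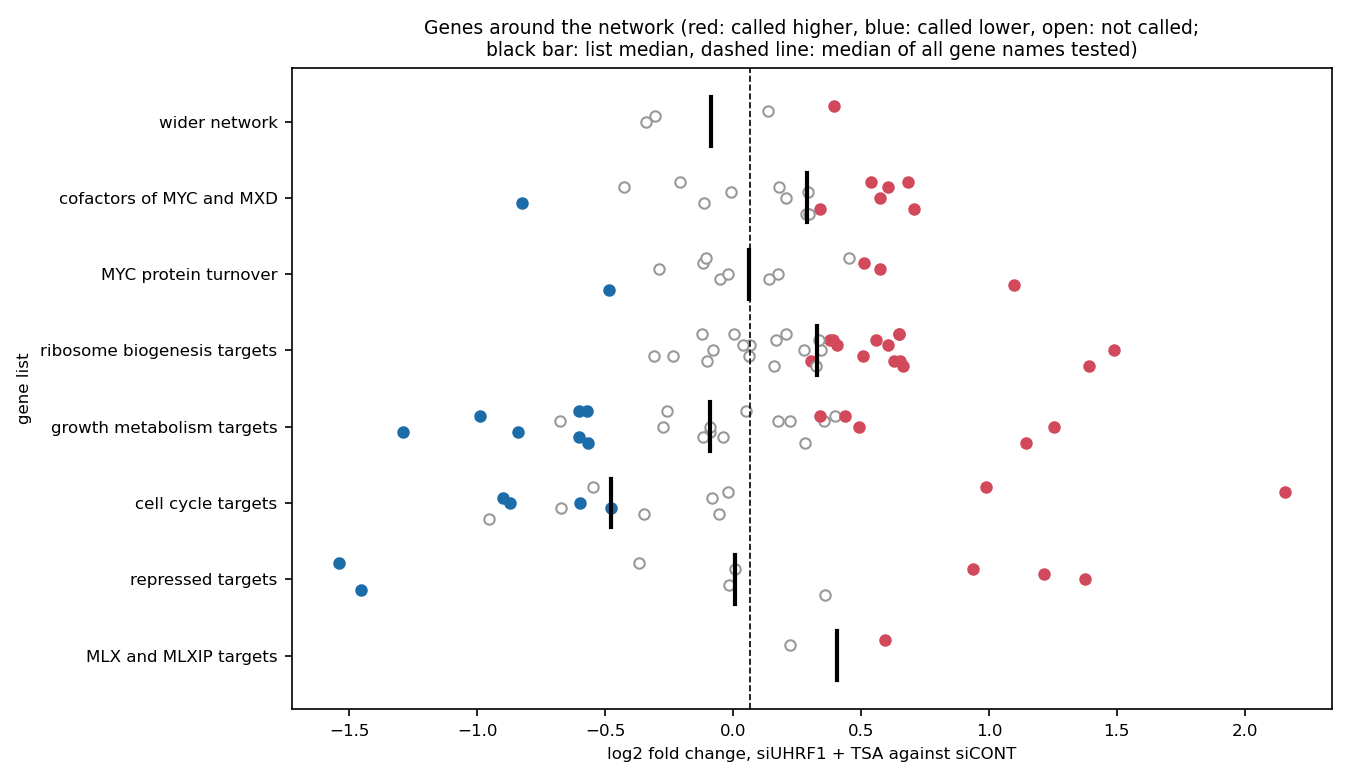
Each point is a gene, by its brightest probe, the x axis gives the log2 fold change of siUHRF1 + TSA against siCONT, and rows are the gene lists, with red for called higher, blue for called lower, open for not called, black bars for list medians and a dashed line for the median of all gene names (0.07). Ribosome biogenesis genes had 14 red and 0 blue points relative to the 75th percentile, against 2 higher and 1 lower when scaled on spike-in probes, and cell cycle genes had a median of -0.48.

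Over all probes, the methods' t-test after adjustment called more for TSA alone (18.3%) than for the combination (1.04%). The limma fit of all siRNA groups called fewer genes of these lists for TSA alone than for the combination. That difference was not tested. Among all gene names 7.22% were higher and 4% lower, and 7 of the 30 ribosome biogenesis genes were higher with 0 lower (12 and 0 at an unadjusted p below 0.05, limma), with a median of 0.19. Under normexp background correction and under spike-in scaling 0 of the 30 were called for TSA alone, with 3 and 2 higher and 0 and 1 lower unadjusted, beside 19.7% and 7.19% of all gene names higher and 7.39% and 14.9% lower unadjusted. All gene names gave 0.965% higher and 1.09% lower under normexp, 1.53% and 2.54% under spike-in scaling, 0.97% and 0.593% with no filter, 6.48% and 5.19% under quantile normalization, and 19.2% and 11.2% unadjusted. Growth metabolism had 2 higher and 5 lower, and the cell cycle list 1 in each direction (2 higher and 5 lower at an unadjusted p below 0.05). With normexp, spike-in scaling and no filter, limma called 0 growth metabolism genes higher (1, 2 and 6 unadjusted, beside 19.7%, 7.19% and 11.3% of all gene names) and 4, 5 and 4 lower, and under quantile normalization 1 cell cycle gene was higher and 3 lower. *RRS1* rose by 0.91 ± 0.09 and *GRWD1* by 0.76 ± 0.10 with TSA alone (limma adjusted p = 0.00979 and 0.0134), and both rose again when siUHRF1 was added to TSA, by 0.58 ± 0.09 and 0.63 ± 0.10 (adjusted p = 0.0285 and 0.028). *MTHFD2* read 4.86 and 4.88 in siCONT, 3.63 and 3.63 in siCONT + TSA, and 3.77 and 3.39 in siUHRF1 + TSA. *PLK1* read 0.20 and 0.21, then 1.34 and 1.25, then 1.33 and 1.28. The groups with TSA overlapped on *SHMT1*, *EP400*, *TFRC* and *HCFC1* too, and *SLC7A5* lay further from siCONT with TSA alone. *PPAN*, *KAT5*, *ZBTB17*, *STUB1*, *GSK3B* and *SENP1* lay further from siCONT in the combination.

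The genes most like *MYC* were named by Pearson correlation of log2 signal with A_23_P215956 over the 8 siRNA arrays, which share 1 slide and come from 4 groups, so the values describe these arrays and carry no test. The highest were *ANKRD18B* (r = 0.9989), *LRIG1* (0.9974), *FIGNL1* (0.9884), *NPC1* (0.9867) and *NAAA* (0.9865). The lowest were *CENPO* (-0.9952), *DGAT1* (-0.9948), *ZNF322* (-0.994), *MEX3A* (-0.9932) and *ISCA2* (-0.992). *LRIG1*, a negative regulator of EGF receptor signalling, went from a mean of 1.32 in siCONT through 1.18 and 0.87 to 0.67 in siUHRF1 + TSA. Among the members, *MXI1* A_23_P161399 (0.967) and the *MXD1* probes (0.917 and 0.875) were nearest to this *MYC* probe, whereas the other *MXI1* probes were at 0.166 and 0.114 and the second *MYC* probe at 0.396, and the *MXD4* probes were at -0.815 and -0.875.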

How the data were processed

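The deposited files hold linear spot intensity values that the authors extracted with Agilent Feature Extraction 10.7.3.1, with background subtracted and no normalization between arrays. Spots marked as outliers were dropped, log2 intensity was shifted by each array's 75th percentile, and the spots of a probe were averaged. A probe was above background when at least 0.5 of its spots were marked so. Probes above background on both arrays of a siRNA group (23731) were fitted with limma 3.58.1 in R 4.3.3 (lmFit, eBayes) on 8 arrays in 4 groups. All 9 arrays were used for 5-aza-dC (27174 probes, and 6 more could not be fitted). The call was a Benjamini-Hochberg adjusted p below 0.05 over all probes. Where a group was not above background, the fold was bounded by the lowest detected signal. The procedure was tested on simulated data. Probe positions are those of the array files (hg19), and promoter windows are RefSeq (GRCh38.p14). Named genes were all members, *UHRF1*, *ACTB* and *GAPDH*, the wider family and MLX targets, up to 3 rises and 3 falls per list in the combination with non-overlapping groups, and the 5 genes most and least like *MYC*. *NCL*, *NPM1*, *FBL*, *ODC1*, *CAD*, *LDHA*, *CDK4*, *CDKN1A*, *SIN3A*, *SIN3B* and *FBXW7* were added as textbook examples after values were seen. The members and lists were chosen with earlier results of these data known. The alternatives are given in the closing section. Of the 21 counted for a comparison between siRNA groups, 1 took the methods' t-test at an unadjusted p below 0.05 as a call.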

Additional observations from a re-analysis of the deposited data

How the results depend on the processing

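All 16 called member values in the siRNA comparisons kept their direction in every alternative run. The number of probes called moved more. Normexp background correction gave 9 calls for siUHRF1, 418 for TSA alone, 1693 for the combination, 92 for depletion under TSA, 799 for TSA within siUHRF1, and 6 for how the effect of depletion differed with TSA (the difference). Scaling on spike-in probes gave 888 for TSA alone, 3394 for the combination, 1872 for TSA within siUHRF1 and 23420 for 5-aza-dC. It moved the median of all probes from 0.07 to -0.12 for TSA alone, from 0.05 to -0.12 for the combination, from 0.07 to -0.11 for TSA within siUHRF1 and from 0.01 to -1.73 for 5-aza-dC. The share of calls that were higher went from 62.1% to 34.2%, from 64.5% to 49.1%, from 64.3% to 47.3% and from 49.4% to 7.67% in these comparisons, and from 83.8% to 93.9% for depletion under TSA. Under quantile normalization it was 52.9% for the combination and 53% for TSA within siUHRF1. With spike-in scaling the 5-aza-dC values of *MAX* became -1.23, -1.20 and -0.80, that of *MXD4* A_23_P423695 -1.02 and that of *MNT* A_33_P3246733 -0.68. In the combination, the median of the repressed targets became -0.16 with it, -0.0024 with a shift by detected probes and -0.0028 with the stricter filter, and that of MYC protein turnover became -0.11 with it and -0.039 with quantile normalization. For TSA alone, list medians became -0.049 (cofactors), -0.012 (ribosome biogenesis) and -0.041 (turnover) with normexp, -0.037 (cofactors) and -0.065 (turnover) with spike-in scaling, and -0.067 (repressed targets) with the stricter filter. The stricter filter left 16 calls for siUHRF1, 288 for depletion under TSA and 0 (671 at an unadjusted p below 0.05, limma) for the difference. No filter gave 668 for TSA alone, 1890 for TSA within siUHRF1 and 21810 for 5-aza-dC, where 33% were higher. Only the groups compared gave 41, 9279, 496 and 521 for siUHRF1, TSA alone, depletion under TSA and TSA within siUHRF1. The trended and robust prior gave 1 for the difference. The methods' t-test gave 1847, 9811 and 3634 unadjusted for siUHRF1, TSA alone and depletion under TSA, and after adjustment 0, 4344 and 0, with 246 for the combination and 1 for TSA within siUHRF1.

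Leaving out each array in turn gave 49 to 138 calls for siUHRF1, 43 to 4686 for TSA alone, 1654 to 7725 for the combination, 373 to 1208 for depletion under TSA, 1666 to 6422 for TSA within siUHRF1, 46 to 125 for the difference and 9345 to 15087 for 5-aza-dC. A lone array left in a group was taken to have the spread of the others. The replicate number as a block gave 136, 2067, 5307, 746, 3302 and 71 calls in the siRNA comparisons in the order above. It called *MYC* in the combination (adjusted p = 0.0458, limma) and lost *MAX* A_23_P436138 for TSA alone (0.0557) and *MXD4* A_23_P423695 for TSA within siUHRF1 (0.0636). Replicate differences correlated at 0.466 between siUHRF1 and siUHRF1 + TSA, which share siRNAs, and between -0.047 and 0.08 elsewhere, so the numbers did not pair all groups. Slide and scan gave no block, since the siRNA arrays share both. The cause of these changes was not tested.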
